A study of Homo sapiens with 4 samples.

Results

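Ribosome biogenesis was followed through 42 genes of the nucleolus, listed by function: processing and assembly factors of both ribosomal subunits, proteins of the small nucleolar ribonucleoproteins (snoRNPs), and genes of RNA polymerase I. A gene was read where the annotation of the array named it alone on a probe set, which held for 36 of the 42 genes with 72 probe sets, of 54675 probe sets on the array. NOP56, DKC1 and BOP1 were named only together with small RNA genes, on 2, 3 and 2 probe sets, and GNL3, DDX18 and EBNA1BP2 were named by 0 probe sets, so these 6 were not analysed here. The cells were M14, an established human melanoma line, made stable for 1 of 2 plasmids: the pIRES2-eGFP vector without an insert, or the same vector carrying FLAG-tagged ARHGAP8 without exon 5. Both lines were selected with G418, sorted for eGFP and kept in G418 medium with serum during the experiment. Each was grown for 4 days on plastic coated with bovine type I collagen and harvested before confluence (2D), or embedded in growth factor-reduced Matrigel (3D). That gave 4 groups with 1 array each, so the spread within a group is not known, and 1 line stands for each plasmid.

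Ribosomes are built in the nucleolus, where RNA polymerase I transcribes a long precursor of the ribosomal RNAs. The precursor is folded, cleaved and modified by snoRNPs and by a large set of assembly factors, which build the small and the large subunit along separate routes before export to the cytoplasm. The mRNAs of these factors rise with growth signals and belong to the best known targets of the transcription factor MYC, and melanoma cells, like other tumour cells, commonly show enlarged nucleoli.

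Signals are the intensity values deposited by the authors, rescaled to a common trimmed mean, and the floor is a signal of 72.3, the median of all of them. Of 19775 genes named alone, 13239 were above the floor on at least 2 arrays and were tested, all 36 described here among them. Melanocyte markers were present, with 6 of 7 above the floor on all 4 arrays and PMEL below it on all; their summed signals were 5169 to 7918 in 2D and 8495 to 8774 in 3D. Of the fibroblast, keratinocyte and endothelial markers 3 of 6, 2 of 5 and 2 of 4 were above the floor on any array, with sums of 529 to 655, 957 to 1206 and 375 to 418 in 2D and of 610 to 722, 774 to 1384 and 399 to 470 in 3D; COL3A1, LUM, PDGFRB, KRT5, KRT14, DSG3, CDH5 and VWF were below it on all. None of the 4 leukocyte markers (PTPRC, CD3E, CD14 and LYZ) was above it on any array. On the ARHGAP8 3D array the median signals of the 18S and 28S ribosomal RNA control probe sets were 626 and 1390, against 27.7 to 49.4 and 94.4 to 119 on the other arrays. Since reverse transcription started from a poly(T) primer, these control signals do not measure how much ribosomal RNA the cells held.

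Culture in gel went with lower signals for most of these genes. Culture was tested in limma by a model with 1 term for the plasmid and 1 for the culture, with Benjamini-Hochberg adjustment over all 13239 genes and a threshold of 0.05; a culture value is the log2 of 3D over 2D averaged over the lines. RRP9, BYSL, NOP14, NOP2, RRS1, UTP20, NOP16 and MRTO4 fell, 0 rose and 28 did not pass. The 8 of 36 make 22.2%, where 4.15% of all tested genes fell and 2.83% rose. The 8 include NOP14, which was above the floor on its 2D arrays alone, so nothing is read from its own call. The count depended on the processing: 5 fell after quantile and 5 after cyclic loess normalization, where 2.11% and 2.4% of all tested genes did. It was 4 without the intensity trend, where 1.6% of all tested genes fell, and 2 with the mean of probe sets, where 0.0906% did. With no filter on low signals it was 0, and 0 over all genes. Among the 33 of the 36 genes with a signal past the floor on every array, a fit to such genes alone called 6 lower, LTV1 being the addition, where 5.59% of such genes were lower. The median culture value of the 36 genes was -0.36, against 0.03 over all tested genes, and was -0.30 with the empty vector alone and -0.44 with ARHGAP8 alone. Ratios were below 0 in both lines for 27 of the 36, against 28.9% of all tested genes, and above 0 in both for 3, against 34.1%. Both 3D signals lay below both 2D signals for 22 of the 36, against 22.7% of all tested genes. In RNA from whole cultures, fewer cells that express a gene and less of its RNA per cell cannot be told apart. RNA quality moved with the culture as well: for ACTB the 3' signal was 1.055 and 1.105 times the 5' signal on the 2D arrays, against 1.23 and 1.32 times on the 3D arrays, and for GAPDH 0.874 and 0.899 times against 0.901 and 0.925 times. The part of RNA quality in the culture values was not tested.

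**Figure D1:**
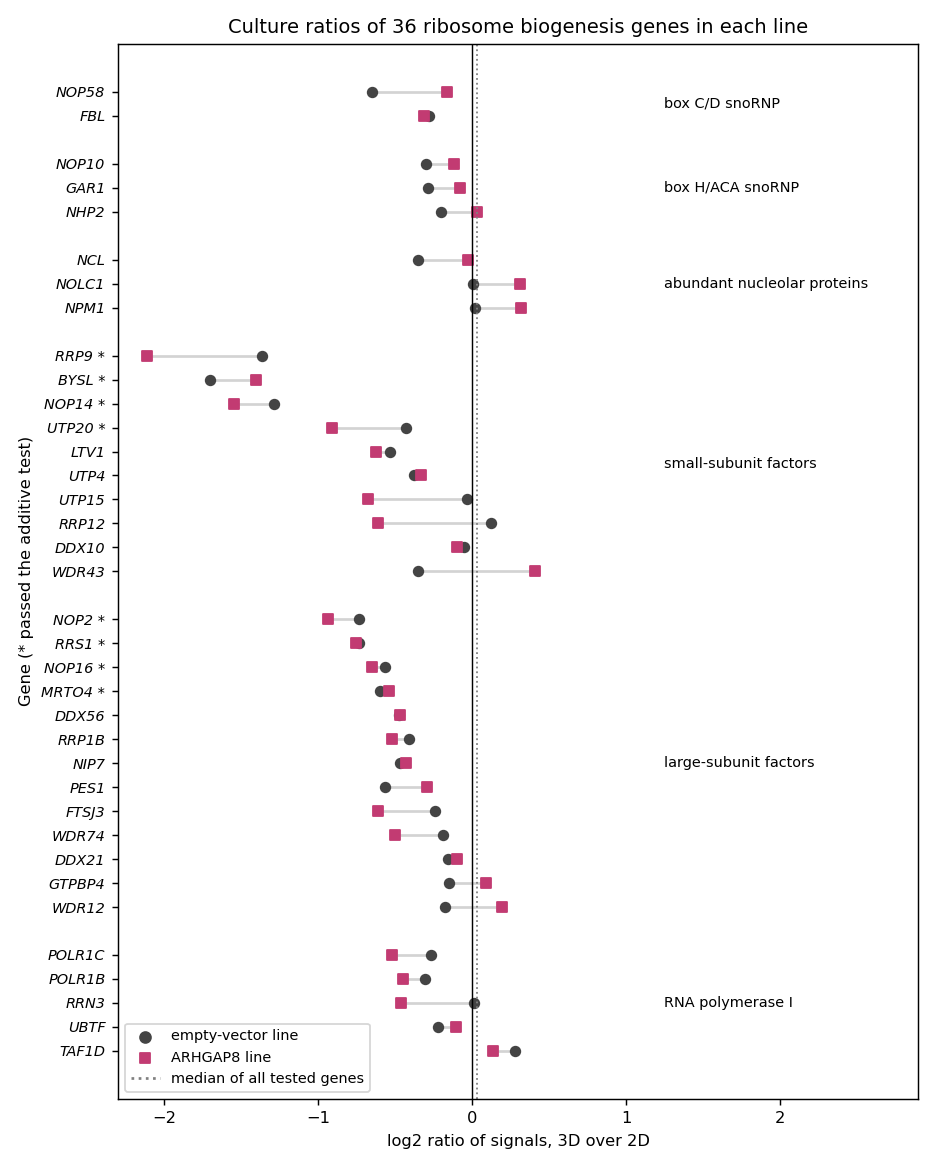
Log2 ratio of 3D over 2D signal (x axis) for each of the 36 genes (y axis, grouped by role), as a circle for the empty-vector line and a square for the line labelled ARHGAP8; each ratio rests on 2 arrays, and an asterisk marks the 8 genes that passed the additive test. Most points lie left of the dotted median of all tested genes, 0.03, and RRP9, BYSL and NOP14 lie farthest left, where ratios with a 3D signal at the floor are bounds.

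With the floor at 72.3, the 3 lowest culture values were those of small-subunit factors. RRP9 encodes a protein of the U3 snoRNP, which folds and guides cleavage of the precursor of the small-subunit RNA. In 2D it gave a signal of 240.3 with the empty vector and 312 with ARHGAP8, and in 3D a signal of 93.2 and 62.5, in that order, which the pairs of signals below keep unless stated. Both 3D arrays were thus low and apart from both 2D arrays, and the last lay below the floor. RRP9 fell by 1.74 ± 0.26 log2 (moderated SE, 4 arrays; adjusted p 0.000276), with a ratio of -1.37 with the empty vector and, against the floor, of -2.11 with ARHGAP8. The fitted value rests on the floor chosen, and with the floor doubled it was -0.92 (adjusted p 0.00422).

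BYSL encodes bystin, which acts late in the processing of the small subunit. It gave signals of 235 and 229.5 in 2D and of 71.6 and 86.7 in 3D. The lines were close to each other in each culture and the cultures far apart, with the empty-vector 3D signal just under the floor. BYSL fell by 1.55 ± 0.25 (adjusted p 0.000548), and its value was -0.68 with the floor doubled (adjusted p 0.0149). NOP14 is a core component of the small-subunit processome, the large particle that assembles on the nascent precursor. Its signals were 177 and 211 in 2D and 71.4 and 44.7 in 3D, with both 3D signals below the floor. NOP14 fell by 1.42 ± 0.25 (adjusted p 0.00110), with ratios against the floor of -1.29 and -1.54 in the lines. It was tested through its 2D arrays alone, so nothing is read from that p. With the floor doubled its value was -0.42 and did not pass (adjusted p 0.102). RRP9, BYSL and NOP14 were the genes at least 2-fold lower in each line, 3 of 36, where 1.29% of tested genes were with the empty vector and 1.96% with ARHGAP8. Nothing is read from that count, since NOP14 passed the filter on low signals through its 2D arrays alone and RRP9 and BYSL each had 1 of 2 3D signals below the floor; where all 4 signals had to exceed the floor it was 0 in each line.

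UTP20, a very large scaffold-like protein of the processome, had signals of 389.7 and 497 in 2D and 289 and 265 in 3D. All 4 were well above the floor, and the ARHGAP8 line held both the highest and the lowest. UTP20 fell by 0.67 ± 0.20 (adjusted p 0.0420), by ratios of -0.43 and -0.91. The other 6 small-subunit factors did not pass. LTV1, which accompanies the small subunit on export, came nearest, with signals of 412 and 472 in 2D and 284 and 306 in 3D, a value of -0.58 and an adjusted p of 0.0667. UTP4 and UTP15, which join the precursor early, had values of -0.36 each, RRP12, an export factor, -0.24 and the helicase DDX10 -0.07. WDR43, a partner of UTP4 and UTP15 in that early complex, had the highest value of the group, 0.03, from ratios of -0.35 and 0.41 that pointed opposite ways. Over the 10 factors the median was -0.47, with 4 fallen (40%), where 4.15% of all tested genes fell. The 4 include NOP14, which was tested through its 2D arrays alone, so nothing is read from its call.

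**Figure D2:**
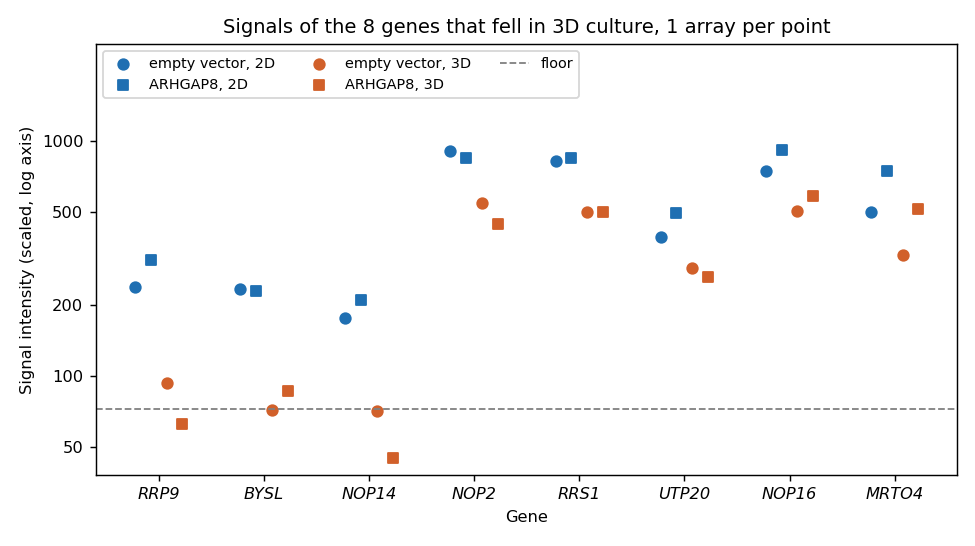
Scaled signal intensity (y axis, log axis) on each of the 4 arrays for the 8 genes that fell in 3D (x axis); circles are the empty-vector line, squares the line labelled ARHGAP8, and the dashed line is the floor of 72.3. Both 3D points lie below both 2D points for 7 of the 8 genes; for MRTO4 the ARHGAP8 3D signal of 515 lies above the empty-vector 2D signal of 498.5.

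Of 13 tested large-subunit factors 4 fell (30.8%) and 0 rose, where 4.15% of all tested genes fell and 2.83% rose. The 4 had similar ratios in the lines. NOP2, which methylates the large-subunit RNA and marks proliferating cells, gave 912 and 848 in 2D and 548 and 443 in 3D. The 3D signals were well apart from the 2D signals and far above the floor. NOP2 fell by 0.84 ± 0.16 (adjusted p 0.00302), with ratios of -0.73 and -0.94. RRS1, which helps to load the small 5S RNA particle onto the large subunit, gave 827.5 and 846 in 2D and 498 and 502 in 3D, with nearly the same values in the lines. RRS1 fell by 0.74 ± 0.16 (adjusted p 0.00717).

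NOP16, a nucleolar protein of the large-subunit precursor, had signals of 749.6 and 916 in 2D and 506 and 584 in 3D, with the cultures apart. NOP16 fell by 0.61 ± 0.16 (adjusted p 0.0252). MRTO4 resembles the stalk protein of the ribosome and holds its place on the precursor. Its signals were 498.5 and 749 in 2D and 329 and 515 in 3D, higher with ARHGAP8 in each culture, and the cultures thus overlap across the lines. Within the lines MRTO4 fell by 0.57 ± 0.17 (adjusted p 0.0469), with ratios of -0.60 and -0.54. Neither UTP20 nor MRTO4 nor NOP16 passed after quantile or cyclic loess normalization.

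The other 9 large-subunit factors did not pass, and all but WDR12 had values below 0. The helicase DDX56 stood at -0.47, RRP1B, a scaffold of precursor particles, at -0.46, NIP7 at -0.45, PES1 at -0.43 and the methyltransferase FTSJ3 at -0.43. WDR74 stood at -0.34, the helicase DDX21, which also acts in polymerase I transcription, at -0.13 and the GTPase GTPBP4 at -0.03. PES1 and WDR12 encode partners in a complex needed to mature the large-subunit RNA, and by the probe set with the highest mean their values differed. PES1 gave 307 and 343 in 2D and 207 and 279.7 in 3D, apart by culture, while WDR12 gave 1253 and 1071 in 2D and 1110 and 1224 in 3D, which overlap (value 0.01, adjusted p 0.981). That difference was not tested and rests on the probe set used. Further sets of WDR12 read -1.002 and -0.11, and that of PES1 was below the floor on every array. With the mean of probe sets WDR12 stood at -0.37 and PES1 at -0.21. Over the 13 large-subunit factors the median was -0.45.

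Of the snoRNP proteins 0 of 5 passed, with values from -0.41 to -0.08. FBL, the methyltransferase of the box C/D class, gave 1460 and 1423 in 2D and 1204 and 1145 in 3D, apart by culture, with a value of -0.30 ± 0.16 and an adjusted p of 0.293. NOP58, its core partner, gave 1791 and 2019 in 2D and 1139 and 1803 in 3D; the low signal was that of the empty-vector line in 3D, and the value was -0.41 ± 0.17 (adjusted p 0.162). Of the box H/ACA class, which converts uridine to pseudouridine, NOP10 stood at -0.21, GAR1 at -0.18 and NHP2 at -0.08.

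The most abundant proteins of the nucleolus did not pass either. NPM1, a histone and ribosome chaperone, gave 5725 and 5671 in 2D and 5798 and 7085 in 3D, with the ARHGAP8 3D array high and the other 3 close together (value 0.17, adjusted p 0.703). NOLC1, a chaperone of snoRNPs, gave 1124 and 1146 in 2D and 1128 and 1422 in 3D, the same arrangement (value 0.16, adjusted p 0.631). NCL, which binds the nascent precursor, gave 5339 and 5309 in 2D and 4177 and 5223 in 3D, with the empty-vector 3D array low (value -0.19, adjusted p 0.642). By these probe sets, the raised signal of NPM1 and NOLC1 was on the array with raised ribosomal RNA control signals. Both further sets of NOLC1 were instead lowest on that array, at 749 and 260. For NPM1 a further set was highest there, at 4660, and another was not, with 4537 against 4846 and 4819 in 2D. The part of that array in these values was not tested. NPM1 has near-identical copies elsewhere in the genome, so its signals are uncertain.

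By the probe set with the highest mean, 0 of 5 RNA polymerase I genes passed. A further probe set of UBTF passed when probe sets were tested singly. That set was above the floor on the 2D arrays alone, so nothing is read from its pass. POLR1C, a subunit shared with RNA polymerase III, gave 342 and 512 in 2D and 284 and 357 in 3D, lower in 3D within each line (value -0.39, adjusted p 0.236). POLR1B, a catalytic subunit, stood at -0.38, the initiation factor RRN3 at -0.23 and UBTF, which opens the ribosomal gene promoters, at -0.16; RRN3 too has near-identical copies. TAF1D, a subunit of the promoter selectivity factor, was the highest of all 36 at 0.21, with signals of 221 and 250 in 2D and 268 and 275 in 3D (adjusted p 0.638).

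Of the 36 genes, 21 had further probe sets, 36 in number, of which 29 were above the floor on at least 2 arrays. Their culture value had the sign of the probe set used above in 21 cases and the opposite sign in 8, with a median of -0.38. Those of MRTO4 and NOP16 gave lower values still, -0.94 for MRTO4 and -0.77 for the brighter set of NOP16, whereas a dim set of NOP16 read 0.48. UBTF was read by 3 further sets at -1.07, -0.88 and -0.45, all below the -0.16 given above. For NOLC1 the 2 further sets read -0.24 and -0.49 and for NPM1 -0.14 and -0.11, the other sign than the brightest set. Those of WDR12 read -1.002 and -0.11, and 1 of RRP12 read 0.32. When each probe set was tested by itself, limma with Benjamini-Hochberg adjustment over 28651 probe sets called 9 of 65 lower and 0 higher, against 1.87% of all lower. The 9 belong to 9 genes: the sets used above for RRP9, BYSL, NOP14, NOP2 and RRS1, and further sets of MRTO4 (adjusted p 0.0215), NOP16 (0.0195), UBTF (-1.07, adjusted p 0.0254) and WDR12 (-1.002, adjusted p 0.0466). The UBTF and NOP14 sets had both 3D signals below the floor and were tested through their 2D arrays alone. Nothing is read from either call within the 9. The sets of WDR12, RRP9 and BYSL each had 1 of the 3D signals below the floor. RRP9, BYSL, NOP14, NOP2, RRS1 and UTP20 rest on 1 probe set each.

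The promoters of some of these genes hold CACGTG, a sequence that the choice of genes did not use. CACGTG, an E-box that reads the same on both strands, is bound by MYC with MAX and by related factors, among them the melanocyte regulator MITF. In the RefSeq promoter windows of GRCh38.p14, from 250 bases before to 50 bases after a start site, 35 of the 42 genes were matched by symbol. NOP58, NOLC1, RRP12, BOP1, RRP1B, RRS1 and DDX18 were not. CACGTG was present in a window of 16 of the 35 (45.7%), against 8.77% of all 27305 genes with a window. Among tested genes with a window it was in 14 of the 31 described here (45.2%), against 12.3% of all 10650. Counted by window, 7.26% of all 35116 held it. In each of the 16 a copy began within 50 bases of a start site, as in 958 of 2396 genes of all that hold it. Among the genes that fell, 6 of the 7 with a window held it, NOP16 being the other, and among tested ones that did not pass 8 of 24. The 6 include NOP14, which was tested through its 2D arrays alone, so nothing is read from its call there. Of all tested genes with a window CACGTG was held by 83 of the 464 that fell (17.9%) and 40 of the 303 that rose (13.2%). These stretches of 30 bases around the CACGTG of the 6 genes are shown to compare its flanks. They run 5' to 3' on the strand of the gene, with CACGTG in capitals.
RRP9, chr3:51941892-51941921, minus strand: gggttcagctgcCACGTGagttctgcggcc
BYSL, chr6:41921515-41921544, plus strand: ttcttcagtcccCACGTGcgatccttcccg
NOP14, chr4:2963374-2963403, minus strand: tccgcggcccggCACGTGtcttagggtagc
UTP20, chr12:101280083-101280112, plus strand: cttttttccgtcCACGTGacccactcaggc
NOP2, chr12:6568242-6568271, minus strand: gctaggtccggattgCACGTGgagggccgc
MRTO4, chr1:19251807-19251836, plus strand: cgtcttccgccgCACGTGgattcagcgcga
The CACGTG begins 5 bases before the start site in RRP9 and 10 before it in UTP20. It begins at base 15 of the transcript in MRTO4, 16 in NOP14, 29 in BYSL and 36 in NOP2. The wider promoters of RRP9 and NOP14 are printed up to 30 bases past the start. They show the place of the single CACGTG in each. RRP9 had a 3D signal below the floor and NOP14 had both below it, so nothing is read from their 2-fold ratios.
RRP9, chr3:51941875-51942154, minus strand: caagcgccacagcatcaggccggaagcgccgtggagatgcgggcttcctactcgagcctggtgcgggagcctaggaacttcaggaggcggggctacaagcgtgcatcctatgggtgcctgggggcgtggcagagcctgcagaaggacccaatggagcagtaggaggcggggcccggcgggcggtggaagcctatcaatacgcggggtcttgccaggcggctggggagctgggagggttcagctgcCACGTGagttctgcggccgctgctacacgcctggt
NOP14, chr4:2963377-2963656, minus strand: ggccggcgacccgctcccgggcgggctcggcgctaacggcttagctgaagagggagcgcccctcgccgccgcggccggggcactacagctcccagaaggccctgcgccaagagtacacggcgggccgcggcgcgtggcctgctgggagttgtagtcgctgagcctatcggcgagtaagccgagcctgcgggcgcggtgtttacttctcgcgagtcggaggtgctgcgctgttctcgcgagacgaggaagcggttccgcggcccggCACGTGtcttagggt
Over all tested genes with a window the median culture value was -0.01 with CACGTG and 0.03 without. Over the tested genes described here it was -0.50 for the 14 with CACGTG and -0.23 for the 17 without. The 14 include NOP14, whose value rests on 3D signals below the floor. The windows were set beside the values after the culture results were known, and a match is not evidence of binding. Of the genes without a pass, FBL, GAR1, NOP10, UTP4, WDR43, LTV1, PES1 and DDX21 hold it. MYC itself gave signals of 561 and 491 in 2D and 743 and 669 in 3D, higher in 3D in both lines without passing (value 0.43 ± 0.16, adjusted p 0.132), and MITF rose by 0.65 (adjusted p 0.0277).

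Some of these genes also carry snoRNA genes inside their span. By position, on either strand, RefSeq places 5 in NOP56, 5 in GNL3, 2 in DKC1 and 4 in NOP58. It places 3 in NCL, 3 in WDR43 and 8 in TAF1D, so that 7 of the 42 genes hold some. Among tested genes the share was 4 of 36, against 158 of 11932 protein-coding genes (1.32%). A tested gene needs a probe set naming it alone, which leaves out hosts named only with small RNA genes, such as NOP56 and DKC1. The 4 that could be read had culture values from -0.41 in NOP58 to 0.21 in TAF1D, with 0 passing and a median of -0.08.

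Further genes of the pathway were read from lists that leave out the 42. Of 43 tested small-subunit factors EMG1, TSR1 and PNO1 fell and 0 rose, with a median of -0.19. EMG1, a methyltransferase of the small-subunit RNA, fell by 0.86, TSR1, a GTPase-like late factor, fell by 0.73 and PNO1 fell by 0.61. Of 38 large-subunit factors SENP3, a SUMO protease of the nucleolus, fell by 0.99 and PAK1IP1 fell by 0.72, with a median of -0.17. POLR1A, the largest subunit of RNA polymerase I, fell by 0.92, from 182 and 113 in 2D to 54.1 and 79.2 in 3D, where the first lay below the floor and was set to it; it was 1 of 11 in that list, whose median was -0.05. The exosome subunit EXOSC4 fell by 0.54, 1 of 13, and POLR3K of RNA polymerase III by 0.56, 1 of 16, with list medians of -0.24 and -0.29. None of 8 snoRNP assembly factors and of 3 noncoding snoRNA hosts passed in limma (0 in each direction), with medians of -0.01 and 0.32. The brightest host, ZFAS1, gave 3117 and 3397 in 2D and 4636 and 4862 in 3D, higher in 3D by 0.55 without passing (adjusted p 0.0787).

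In the network of MYC and MAX, 1 of 9 genes rose and 0 fell. MXD1, which competes with MYC for MAX, gave 91.4 and 82.8 in 2D and 124 and 242 in 3D and rose by 1.00 ± 0.27 (adjusted p 0.0308), with the ARHGAP8 3D array highest. Of the 4 genes that link free ribosomal proteins to p53, 0 passed: RPL11 stood at 0.33, MDM4 at 0.41, MDM2 at -0.24 and the p53 target CDKN1A at 0.66. In all, 8 of 145 further genes fell and 1 rose. The 8 make 5.52%, near the 4.15% of all tested genes that fell, where 2.83% rose. The median of the further genes was -0.14, between that of the 36 genes and that of all tested genes.

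**Figure D3:**
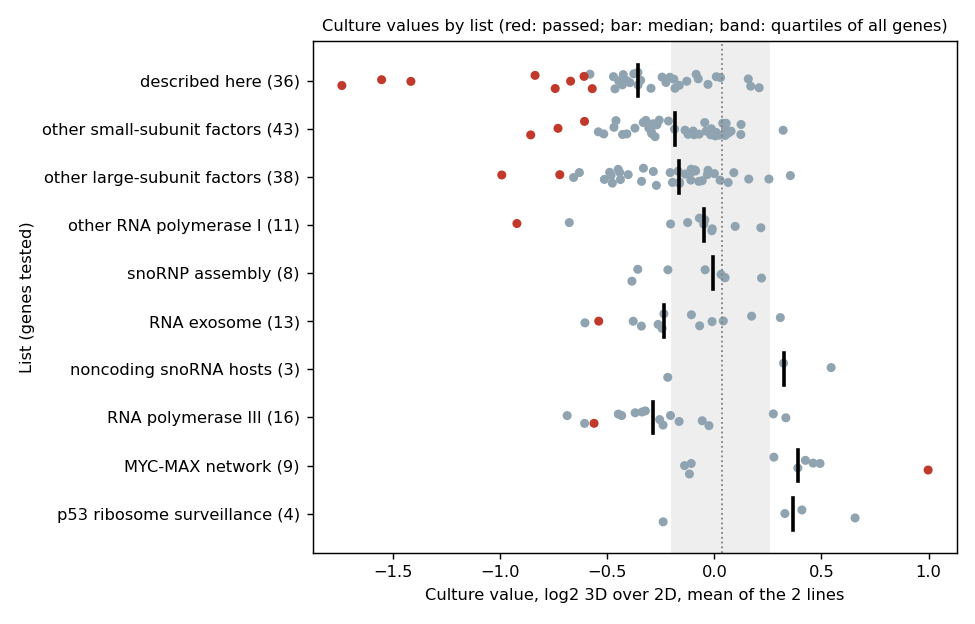
Culture value (x axis, log2 of 3D over 2D averaged over the lines) of every tested gene in each list (y axis, number tested in brackets); red points passed the additive test, black bars are list medians, and the grey band runs from -0.20 to 0.26, the lower to the upper quartile of all tested genes. The 36 genes described here have the lowest median, -0.36, and the MYC-MAX list the highest, 0.39.

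Between the lines no gene of the 36 was called. ARHGAP8 is named on 4 probe sets, each shared with another gene, whose signals of 4.02 to 14.8 lie below the floor on every array; they do not show the plasmid's transcript, so the line is called by its label. With 1 line per plasmid a difference between lines cannot be assigned to the plasmid. None of the 36 genes passed for the plasmid in limma after Benjamini-Hochberg adjustment, where 0.128% of all tested genes did. An unadjusted p under 0.05 in limma was found for 5 of the 36, and for 1078 of all 13239 tested genes in either direction. All 5 were higher in the line labelled ARHGAP8. The median of the plasmid value, log2 of ARHGAP8 over empty vector averaged over the cultures, was 0.11, against 0.00 over all tested genes, with 17 of 36 above 0 in both cultures (25.4% of all tested genes) and 4 below 0 in both (26.2%).

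MRTO4 had the lowest adjusted p, 0.183, at 0.62 ± 0.17, from a 2D ratio of 0.59 and a 3D ratio of 0.65. UTP15 was higher by 0.65 ± 0.25 (adjusted p 0.443), from 96.9 and 94.6 with the empty vector (2D, then 3D) to 189.6 and 119 with ARHGAP8; its further probe set read 0.09. WDR43 was higher by 0.55 ± 0.20 (adjusted p 0.386), from 375 and 294 with the empty vector (2D, then 3D) to 423 and 561 with ARHGAP8, with the excess mainly on the ARHGAP8 3D array. POLR1C was higher by 0.46 (adjusted p 0.482) and NOP58 by 0.42 (adjusted p 0.464). NOP2 had the lowest value, -0.21. No ratio between the lines reached 2-fold for any of the 36 in either culture (0 genes), where 0.461% of tested genes were at least 2-fold apart in 2D and 2.44% in 3D.

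**Figure D4:**
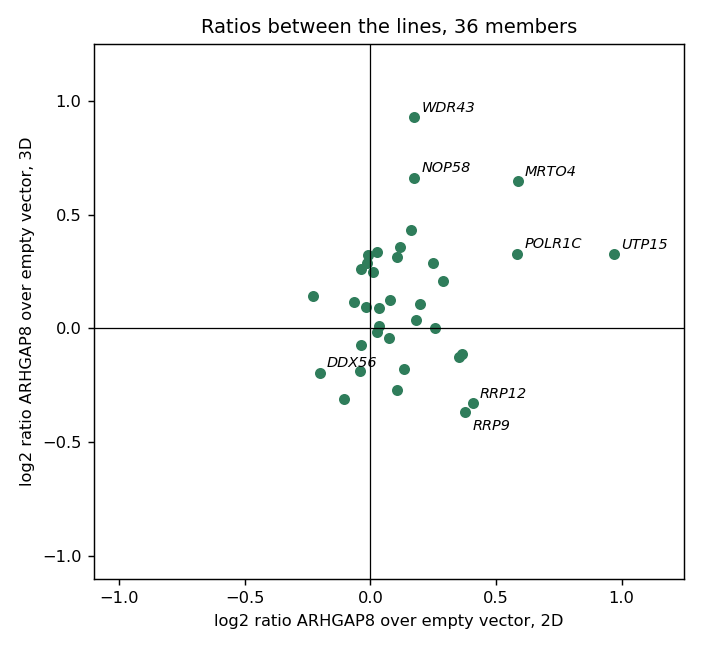
Log2 ratio of the line labelled ARHGAP8 over the empty-vector line in 2D (x axis) and in 3D (y axis) for the 36 genes, 1 point per gene and 2 arrays per ratio. UTP15 has the highest 2D ratio, 0.97, and WDR43 the highest 3D ratio, 0.93; 17 points lie above 0 on both axes and 4 below 0 on both.

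Whether culture acted alike in both lines could be described but not tested with 1 array per group. For the 33 genes whose signal exceeded the floor on every array, the 3D over 2D ratio of the ARHGAP8 line minus that of the empty-vector line ran from -0.74 in RRP12 to 0.76 in WDR43, with a median of 0.01. None reached 2-fold (0 of 33), against 3.29% of 11201 genes. Among those that fell, ratios were -0.73 and -0.75 for RRS1, -0.60 and -0.54 for MRTO4, and -0.57 and -0.65 for NOP16. UTP20 differed most among those that fell and were above the floor on all arrays, with -0.43 and -0.91. Close ratios among genes that passed are in part built in, since the residual of the fit is this difference between the lines. RRP12 gave 184 and 244 in 2D and 201 and 159.8 in 3D, and its 4 further probe sets ranged from -0.48 to 0.32 in culture value.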

How the data were processed

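RNA from 4 cultures was measured on 4 Affymetrix HG-U133 Plus 2.0 arrays; per the labels' protocols it was copied from a poly(T) primer and amplified in a pair of in vitro transcription rounds. The authors deposited 1 intensity per probe set on a linear scale; per the submitters' processing notes the tool was MAS5, and neither its version nor detection calls are given in the sources used here. Precision is limited by the number of arrays. Arrays were scaled to a common 2% trimmed mean (150.0), 62 control probe sets left out, values under 72.3 set to that floor and log2 taken. Probe sets with 1 symbol (41091) were named from the platform annotation, updated by gene identifier for 41037; a gene was read by its probe set with the highest mean. The additive fit (plasmid and culture) ran in limma 3.58.1 (R 4.3.3), eBayes with trend by intensity, two-sided, on 13239 genes; it has 1 residual degree of freedom and 19.4 prior ones, so each SE draws mostly on other genes, and the spread between independent lines or repeat cultures is not in it. Adjusted p-values in the report are Benjamini-Hochberg values of this fit. Where the lower signal of a line is at the floor, that line's ratio is a bound; a fitted value that averages such a ratio is not.

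The genes and lists were chosen with earlier results of these data known. Named with full values were genes past the test, at least 2-fold apart in a ratio, or highest or lowest of their role group, and in other lists up to 3 past the test per direction; the rest are given by culture value, and LTV1, PES1, MYC, ZFAS1, MITF and the p53 genes were named in addition. Alternatives were other scalings, floors, filters, probe set rules and variance models, and leaving out each array. Protein sequences were not used here.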

Additional observations from a re-analysis of the deposited data

Results flagged for a closer look

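By the probe set with the highest mean, WDR43 and RRP12 moved opposite ways between cultures in the 2 lines. The difference of their log2 ratios, 3D over 2D in the line labelled ARHGAP8 minus the empty-vector line, was 0.76 for WDR43 and -0.74 for RRP12. RRP12 also went opposite ways between the lines in 2D and 3D, a difference of -0.74 by construction. These differences were not tested. WDR43 is read by 1 probe set. The further sets of RRP12 had 3D over 2D ratios (empty vector, then ARHGAP8) of -0.27 and -0.22, -0.12 and -0.84, 0.24 and 0.39, and -0.81 and 0.73. No further set was above 0 with the empty vector and below 0 with ARHGAP8, as the set used above was.

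The control probe sets for ribosomal RNA, which enter no comparison above, had median signals of 626 for 18S and 1390 for 28S on the ARHGAP8 3D array, above the highest of the other 3 arrays, 49.4 and 119. The culture median of the 36 genes without that array, that of the empty-vector line, was -0.30.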

How the results depend on the processing

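The median culture value of the 36 genes stayed below 0 in every setting tried: from -0.36 to -0.29 over the 11 fits, and from -0.44 to -0.30 when 1 array was left out. Leaving out an array leaves 0 residual degrees of freedom, so no calls were made there. No setting turned the direction of a gene that passed. BYSL and NOP2 passed in 9 of 10 and 9 of 11 fits, RRP9 and NOP14 in 8 of 10 and RRS1 in 8 of 11. NOP16 and UTP20 passed in 6 of 11 and MRTO4 in 2 of 11. NOP14 was above the floor on its 2D arrays alone, so nothing is read from its passes. RRP9, BYSL and NOP14 were not tested where all 4 signals had to exceed the floor, a fit in which 6 of 33 fell. The count of genes that fell, 8, was 5 after quantile and 5 after cyclic loess normalization (background 2.11% and 2.4%). It was 4 without the intensity trend (background 1.6%) and 2 with the mean of probe sets (12 of 13239 genes in all). By the same probe sets it was 5 in the probe set level fit (background 1.87%), which was added after the data were seen. In that fit further sets of MRTO4, NOP16, UBTF and WDR12 also passed. With no filter limma made 0 calls for any gene. There 14 of the 36 were lower at an unadjusted p under 0.05 in limma, a share that was not counted over all genes. The fit without a filter holds genes at the floor on all arrays, whose variance is 0. Genes at least 2-fold lower, 3 in each line, were 0 in the empty-vector and 1 in the ARHGAP8 line with the floor doubled, and 0 and 0 where all 4 signals had to exceed it. In the other lists, 8 fell and 1 rose; these counts were 4 and 0 after quantile, 4 and 0 after cyclic loess, 5 and 0 without a floor, 0 and 0 with no filter, 0 and 0 with the mean of probe sets, and 2 and 0 without the trend, while 0 rose with the floor doubled, 2 rose where all 4 signals had to exceed the floor and 2 rose with robust eBayes. No gene of the 36 passed for the plasmid in any fit, with 4 or 5 at an unadjusted p under 0.05. In the main fit 1078 of all 13239 tested genes had such a p. The cause of these changes was not tested. The additive model compares the cultures within each line, with 1 residual degree of freedom; each group holds 1 array, so there are no replicate numbers to pair. Signals near the floor limit RRP9, BYSL, NOP14 and POLR1A, and the further sets of UBTF and WDR12 that passed.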
